A study of Drosophila melanogaster with 8 samples.

Results

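The nuclear genes for oxidative phosphorylation were examined for AGO2 chromatin association in Kc cells given a mock treatment or the transcription inhibitor Triptolide. Members were all protein-coding genes on nuclear chromosomes whose symbol begins with Nduf, ND-, COX, UQCR, Sdh or ATPsyn, which gave 90 of the 13968 protein-coding genes. A member was scored as having a peak when a peak overlapped the gene or lay within 500 bp of it. Kc167 (Kc) is a female line of embryonic hemocyte origin. Each AGO2 ChIP-seq peak list came from 1 replicate and its paired input, for 2 mock replicates and 2 replicates given Triptolide, a small molecule that blocks transcription initiation, at 10 µM for 60 min. The treatment protocol in the labels names Triptolide for every sample, mock included, so groups were taken from the sample titles and the treatment entry. Nothing in the labels says whether replicates came from separate cultures, so p-values measure only the spread between these samples. The 4 lists held 1055 and 1919 peaks in mock and 5594 and 5873 peaks after Triptolide. Depth of the libraries is unknown, and peak number cannot be told apart from depth or from the quality of the immunoprecipitation. The lists hold no expression values, so the identity of the cells was not checked against markers.

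Oxidative phosphorylation takes place in the inner mitochondrial membrane. Complex I (NADH dehydrogenase) and complex II (succinate dehydrogenase, Sdh) pass electrons to ubiquinone, complex III (cytochrome bc1, UQCR) passes them on to cytochrome c, and complex IV (cytochrome c oxidase, COX) passes them to oxygen, while complex V (ATP synthase, ATPsyn) uses the proton gradient to make ATP. Most subunits are encoded in the nucleus by compact genes that nearly every cell transcribes, and the fly genome also carries duplicated copies, named with a final L, several of which are known for expression in the testis. AGO2 is the effector of the siRNA pathway in flies and also associates with chromatin. The mitochondrial chromosome, which encodes the remaining core subunits, held 0 peaks in all 4 lists.

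Among members with overlapping peaks in both Triptolide lists, the strongest AGO2 peaks had summits inside coding sequence, close together in the replicates. Closeness was favored by this choice, since only overlapping peaks were taken. Other strong peaks had no counterpart in the other Triptolide list, such as those of ATPsynE and COX7B, at score percentiles of 98.7 and 96.2. The COX7B summit lay outside the gene, inside Sec3. The dm6 sequence around the summits of overlapping peaks is shown for the highest-ranked members with such peaks in complexes I, II, III and IV. Each sequence runs from 50 bp before one summit to 50 bp after the other, trimmed to the coding exon, on the strand of the gene, and capitals mark the bases from the summit of one replicate to that of the other. NdufV3 encodes an accessory subunit of complex I and its segment lay at chrX:11350171-11350298 on the plus strand. ND-B17 encodes an accessory subunit of the membrane arm of complex I (segment at chr2L:15750790-15750899, minus strand). ND-ACP encodes the mitochondrial acyl carrier protein, which is also a subunit of complex I (segment at chr3L:1330206-1330290, plus strand). SdhC encodes a membrane anchor of complex II (segment at chr3R:11209453-11209561, minus strand). UQCR-C1 encodes a core protein of complex III (segment at chr3R:14891504-14891633, plus strand). COX5A and COX4 encode nuclear subunits of complex IV (segments at chr3R:11819847-11819963 and chr2L:19959369-19959503, both plus strand).
NdufV3: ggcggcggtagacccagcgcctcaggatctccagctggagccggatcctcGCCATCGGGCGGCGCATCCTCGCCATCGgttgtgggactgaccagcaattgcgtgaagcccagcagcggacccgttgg
ND-B17: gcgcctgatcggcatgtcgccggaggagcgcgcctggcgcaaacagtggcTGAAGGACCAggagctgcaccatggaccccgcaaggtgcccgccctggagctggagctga
ND-ACP: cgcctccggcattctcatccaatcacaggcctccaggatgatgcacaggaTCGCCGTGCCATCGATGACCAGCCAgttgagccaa
SdhC: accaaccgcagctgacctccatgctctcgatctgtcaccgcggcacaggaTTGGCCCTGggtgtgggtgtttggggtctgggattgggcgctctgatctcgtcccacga
UQCR-C1: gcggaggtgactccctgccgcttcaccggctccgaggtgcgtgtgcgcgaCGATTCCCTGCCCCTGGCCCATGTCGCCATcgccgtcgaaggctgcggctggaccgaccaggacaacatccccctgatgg
COX5A: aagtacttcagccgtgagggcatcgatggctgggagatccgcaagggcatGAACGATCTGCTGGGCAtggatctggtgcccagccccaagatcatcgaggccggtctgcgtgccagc
COX4: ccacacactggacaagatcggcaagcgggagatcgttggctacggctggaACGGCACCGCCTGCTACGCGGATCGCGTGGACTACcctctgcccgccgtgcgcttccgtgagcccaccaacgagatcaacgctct
These segments were rich in G and C, from 58.8% in ND-ACP to 69.2% in UQCR-C1. The NdufV3 segment contained a short repeat, with the letters gccatcgg occurring more than once.

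Peaks of mock cells in these genes had another setting, and 2 such segments are shown for comparison. One lay in an intron of ND-15, 111 and 112 bp from the transcription start site (TSS) of Gs1, a glutamine synthetase gene nested there (chr2L:131915-132016, plus strand). The other lay in an intron of ND-MLRQ, 5575 and 5588 bp from the nearest TSS (chr3L:23344851-23344964, plus strand). Capitals again mark the bases from one summit to the other.
ND-15, mock: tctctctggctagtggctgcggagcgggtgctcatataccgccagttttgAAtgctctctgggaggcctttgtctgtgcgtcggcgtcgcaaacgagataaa
ND-MLRQ, mock: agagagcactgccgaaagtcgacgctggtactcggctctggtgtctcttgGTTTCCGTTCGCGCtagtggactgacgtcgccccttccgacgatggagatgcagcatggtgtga
Both segments contained GAGAG or its reverse complement CTCTC outside the capitals. The segment around the overlapping mock summits of COX7AL2, which is not printed, contained neither.

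More members had an AGO2 peak after Triptolide than in mock cells. In mock, 3 of 90 members (3.33%, Wilson 95% interval 1.14 to 9.35%) had a peak in replicate 1 and 4 of 90 (4.44%, 1.74 to 10.9%) in replicate 2, where 5.85% and 10.0% of all protein-coding genes had one. After Triptolide, 26 members (28.9%, 20.5 to 39.0%) had a peak in replicate 1 and 30 (33.3%, 24.5 to 43.6%) in replicate 2, against 31.5% and 32.0% of all protein-coding genes. The share of members with a peak was 3.89 ± 0.786% in mock and 31.1 ± 3.14% after Triptolide (SD, n = 2 lists each), a difference of 27.2 percentage points (p = 0.333 in a two-sided exact permutation test, in which 2 lists against 2 allow no smaller value). The ranges of these shares did not overlap between treatments, and the difference was larger than the spread between replicates. All protein-coding genes moved the same way, and the share among members was close to that background in each Triptolide list. Intervals cover counting error over genes only. When each list was restricted to its 1055 top-scoring peaks, the difference was 11.7 percentage points.

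**Figure D1:**
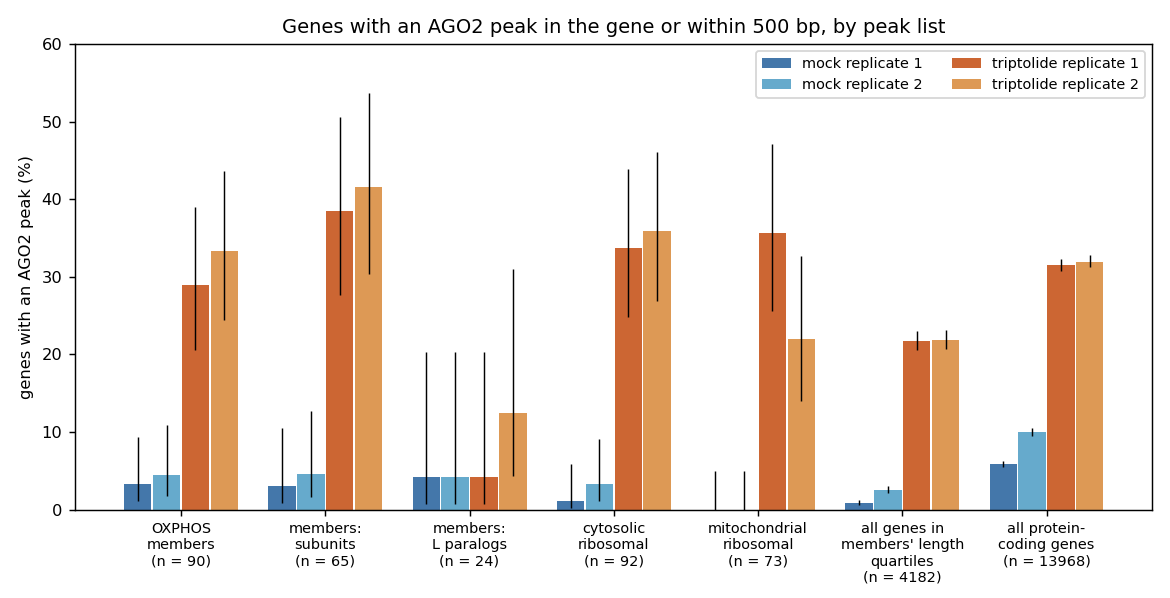
Share of genes with an AGO2 peak in the gene or within 500 bp (y axis, %) for the members, their subunit genes and L paralogs, ribosomal protein genes and all protein-coding genes; bars are single peak lists (mock in blue, Triptolide in orange) and vertical lines are Wilson 95% intervals over genes. In each gene set both Triptolide bars are above both mock bars except among the 24 paralogs, where Triptolide replicate 1 and both mock lists each show 1 gene (4.17%).

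Members could be divided by the lists that held their peaks. In total 54 members had no peak in any list, and 40% of members had at least 1, against 43.8% of all protein-coding genes. A peak in at least 1 Triptolide list was found at 34 members (37.8%, against 41.0% of all protein-coding genes). Overlapping peaks were called in both Triptolide lists at 22 members (24.4%, with a background of 20.1%), and in both mock lists at 3 (3.33%, background 5.45%). Of the 22, 20 had no mock peak (22.2% of members, background 17.3%), and ND-15 and COX4 had one. COX7AL2 and ND-MLRQ had peaks in both mock lists and in neither Triptolide list. With the 1055 top-scoring peaks of each list, 9 members instead of 20 had peaks in both Triptolide lists and in no mock list. The background of 17.3% belongs to the full lists, and no share over all protein-coding genes is set beside the 9.

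Members are short genes, with a median length of 1091.5 bp (443 to 41305 bp) where all protein-coding genes have 2164.5 bp. Among the 44 members between the quartiles of the members' length (743 to 1741 bp), 29.5% (13 genes) had overlapping peaks in both Triptolide lists, while 13.3% of all 4182 protein-coding genes of these lengths did. The members of these lengths also had a GC-richer best window, with a median of 63.2% in their richest window (100 bp on each side of a central base) against 60.2% in all genes of these lengths. The part of base composition in this difference was not tested. Among the 44 members between the quartiles of the members' own gene GC content (42.7 to 50.5%), 18.2% had overlapping Triptolide peaks, against 19.4% of all 7832 protein-coding genes in that range.

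Complex I contributed the most members with reproducible Triptolide peaks. Of its 42 genes, 14 (33.3%, Wilson interval 21.0 to 48.4%) had overlapping peaks in both Triptolide lists and 19 (45.2%) had one in at least 1, where the shares over all protein-coding genes were 20.1 and 41.0%. Complex II had 2 of 8 genes with overlapping peaks, SdhB, the iron-sulfur subunit, and SdhC, and 4 of 8 with at least 1. Complex III had 2 of 9, UQCR-C1 and UQCR-Q, and complex IV had 3 of 16, COX4, COX5A and COX6B. Complex V had 1 of 15, ATPsynF, a subunit of the membrane sector (6.67%, interval 1.19 to 29.8%), while ATPsynD, ATPsynE and ATPsynO had a peak in Triptolide replicate 2 alone. The shares with overlapping peaks were 25% in complex II, 22.2% in complex III and 18.8% in complex IV, and the intervals of complexes II to V held the share over all genes. The lower limit for complex I, 21.0%, was just above that share of 20.1%. Of its 14 genes, ND-15 had the overlapping summits inside another gene, CG11454. The other 13 (31.0% of 42, interval 19.1 to 46.0%) had an interval that held 20.1%, a share not filtered in this way. The intervals of the complexes overlapped, and no test between complexes was run.

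Subunit genes carried nearly all of these peaks, and the L paralogs few. Among 65 subunit genes, 25 (38.5%) had a peak in Triptolide replicate 1, 27 (41.5%) in replicate 2 and 21 (32.3%) had overlapping peaks in both, where the shares over all protein-coding genes were 31.5, 32.0 and 20.1%. Of 24 L paralogs, 1 (4.17%) had a peak in Triptolide replicate 1 and 3 (12.5%) in replicate 2, below those shares. ND-20L, a copy of ND-20, was the paralog with overlapping peaks in both lists. SdhBL had a peak in replicate 2 with its summit in coding sequence, and the peak scored for UQCR-14L in that list had its summit in the neighboring gene Mst98Cb. The only assembly factor the symbols gave, Sdhaf3, had no peak. The paralogs were shorter (median 744 bp, against 1118 bp in subunit genes) and their richest window had a lower median GC content (60.9% against 63.2%), and the part of these features was not tested.

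The members were ranked by the score of their best peak, expressed as a percentile within each list. NdufV3 (FBgn0030292, chrX:11349998-11350474) ranked first, with percentiles of 99.4 and 99.9 in the Triptolide replicates and deposited folds of 6.09 and 6.78 over local background. COX5A (FBgn0019624, chr3R:11819359-11820299) followed at percentiles of 99.3 and 99.6 and folds of 6.41 and 5.16. ND-B17 (FBgn0001989, chr2L:15749319-15751078) had percentiles of 97.6 and 99.7 and folds of 4.73 and 5.89. These genes, of complexes I and IV, thus stood near the top of both Triptolide lists and had no peak in either mock list. ND-ACP (FBgn0011361, chr3L:1329949-1331631) had percentiles of 98.4 and 96.8, with folds of 5.02 and 4.18, and again no mock peak.

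COX4 (FBgn0032833, chr2L:19958713-19960065), a nuclear subunit needed early in assembly of complex IV, had percentiles of 95.5 and 93.5 and folds of 4.13 and 3.87 after Triptolide. It was the single member with a mock peak that overlapped a Triptolide peak. That peak was called in mock replicate 2 only, with a fold of 3.69 at percentile 19.9 of its list. Its summit lay in the coding sequence, 789 bp from the 5′ end of the gene, where the Triptolide summits lay at 706 and 740 bp. The folds of the 3 lists were thus similar while the ranks differed, and scores are not comparable between lists of unknown depth.

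SdhC (FBgn0037873, chr3R:11208887-11209849) had percentiles of 83.8 and 97.9 and folds of 3.39 and 4.91. SdhB had percentiles of 73.9 and 86.6 with folds of 3.60 and 3.84. UQCR-C1 (FBgn0038271, chr3R:14890231-14892387) led complex III at 86.9 and 69.6 with folds of 4.02 and 3.56. Among members with overlapping peaks, the best of complexes II and III thus ranked below those of complexes I and IV by mean percentile. ATPsynF, the only such member of complex V, was lower again at 70.9 and 37.8 with folds of 3.92 and 3.56. The best rank also depends on the number of such members, which was 14, 2, 2, 3 and 1 in complexes I to V. ATPsynE of complex V, at percentile 98.7 in replicate 2 alone, was not ranked. No difference between complexes was tested.

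The other members among the 15 highest by mean Triptolide percentile all belonged to complex I. Mean percentiles were 90.2 for ND-18 and 89.2 for ND-39, subunits of the arm that extends into the matrix. They were 88.9 for ND-B18, 86.5 for ND-B16.6, 81.3 for ND-20 and 74.1 for ND-B15, of which ND-20 is a core subunit that holds an iron-sulfur cluster. ND-15 closed the 15 at 63.6. Over all member peaks, folds ran from 2.05 to 6.41 in Triptolide replicate 1 and from 2.22 to 6.78 in replicate 2.

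**Figure D2:**
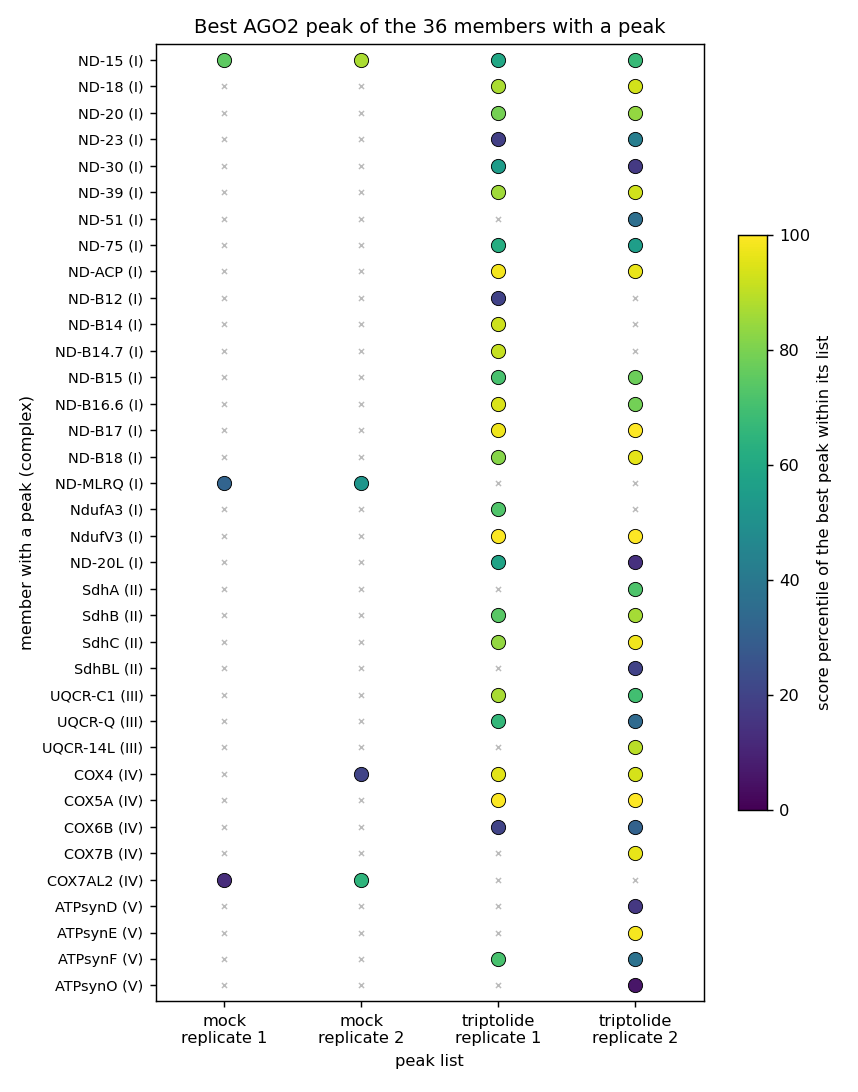
Best AGO2 peak of each of the 36 members with a peak (y axis, complex in parentheses) in the 4 lists (x axis); color gives the percentile of the peak's score within its list and a cross means no peak. The 2 mock columns hold 3 and 4 filled circles and the Triptolide columns 26 and 30, with NdufV3, COX5A, ND-B17 and ND-ACP above percentile 96 in both Triptolide lists.

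Peaks in members ranked above the middle of the Triptolide lists. The median percentile of member peaks was 73.3 among 30 peaks in replicate 1 and 69.6 among 37 peaks in replicate 2, and 8 (26.7%) and 11 (29.7%) of them were at or above percentile 90. In the mock lists the 4 and 7 member peaks had median percentiles of 53.3 and 52.0, and 0 reached percentile 90. Percentiles were taken over all peaks of a list. No share for the peaks scored for all protein-coding genes is set beside these counts, so the ranks are not read as a trait of the members. Median folds of member peaks were 3.52 and 3.62 after Triptolide, where all peaks had medians of 3.40 and 3.46. In mock they were 5.21 and 5.40, where all peaks had medians of 5.00 and 4.73. The folds of member peaks were thus close to those of their lists.

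In mock cells the peaks at 3 of the 4 members with any lay in introns. ND-15 (FBgn0031228, chr2L:114726-156030), an accessory subunit of complex I, is annotated as a gene of 41305 bp that holds other genes in its introns. Mock replicate 1 had 2 peaks there, with folds of 6.96 and 6.01, and their summits were 31 bp from a TSS of CG3164 and 111 bp from that of Gs1. Mock replicate 2 had peaks at the same places, with folds of 6.79 and 9.45, and another with a fold of 4.40 whose summit was 52 bp from a TSS of CG4822. The mock peaks scored for ND-15 were thus next to start sites of other genes. The overlapping Triptolide peaks of ND-15, with folds of 3.21 and 3.85, lay elsewhere in the gene, inside CG11454, and did not overlap a mock peak.

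COX7AL2 (FBgn0085201, chr2L:2192525-2197912), a paralog of a complex IV subunit, had 1 intron peak in mock replicate 1 (fold 3.28, percentile 12.7) and 2 in mock replicate 2 (folds 6.33 and 3.29, percentiles 65.0 and 27.7). ND-MLRQ (FBgn0052230, chr3L:23339326-23345936) had 1 intron peak in each mock list, with folds of 4.41 and 5.40 at percentiles 31.7 and 52.0, far from any TSS as shown above. Members with a mock peak were long, with a median of 5999.5 bp over the 4 genes and 1353 bp for the shortest, COX4.

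AGO2 peaks in members after Triptolide lay in coding sequence rather than at the start of the gene. The summit was in coding sequence in 23 of 30 member peaks (76.7%) in replicate 1 and in 26 of 37 (70.3%) in replicate 2. The mock lists had 0 of 4 and 1 of 7 (14.3%), the 1 being COX4. The mean share was 7.14 ± 10.1% in mock and 73.5 ± 4.52% after Triptolide (SD, n = 2 lists each), a difference of 66.3 percentage points (p = 0.333 in the same exact permutation test, again the lowest possible). Over all protein-coding genes the same shares were 6.16 and 9.32% in mock and 68.1 and 72.5% after Triptolide, so the members followed the whole lists.

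Start sites of the members themselves were rarely marked. In total 0 member peaks covered a TSS of their own gene in any list. Summits within 250 bp of such a TSS numbered 0 in both mock lists and 2 in each Triptolide list, 6.67 and 5.41% of member peaks, and came from ND-B17 (229 and 238 bp) and NdufV3 (250 and 223 bp). This difference of 6.04 percentage points had an exact permutation p of 0.333, again the smallest possible. Over all protein-coding genes, 45.2 and 39.0% of mock summits and 5.41 and 4.29% of Triptolide summits lay that close to a start of the gene they were scored for. None of the few mock peaks of the members was placed in this way.

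Within the member, the coding summits after Triptolide were 509 bp from the 5′ end of the gene in the median in replicate 1 (229 to 4761 bp) and 493 bp in replicate 2 (223 to 4669 bp). In relative terms these medians were 46.7 and 50.3% of gene length, and 18 of 23 and 21 of 26 summits lay between 25 and 75% of it. These counts cover coding summits only. No share over all protein-coding genes is set beside them, so a position in the middle is not read as a trait of the members. ND-39, a gene of 5003 bp, had the most distant summits, in the last coding exon at 4761 and 4669 bp. In replicate 2 it had another peak at 3597 bp. No summit of a member peak fell in a UTR of its gene in any list.

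Of the 22 members with overlapping Triptolide peaks, 18 had coding summits in both lists. In ATPsynF and ND-75, the largest subunit of complex I, a summit lay in an intron in at least 1 list. In ND-75 both summits were intronic, at 518 and 512 bp. In ND-15 and COX6B, a complex IV subunit on the side of the intermembrane space, the summits lay in introns that also hold CG11454 and CG18809. Of the 12 members with a peak in 1 Triptolide list, 9 had the summit inside the gene. For COX7B, NdufA3 and UQCR-14L it lay in the neighboring genes Sec3, Dlip1 and Mst98Cb. All summits scored for a member but placed outside it, 2 in Triptolide replicate 1 and 7 in replicate 2, lay inside another gene.

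**Figure D3:**
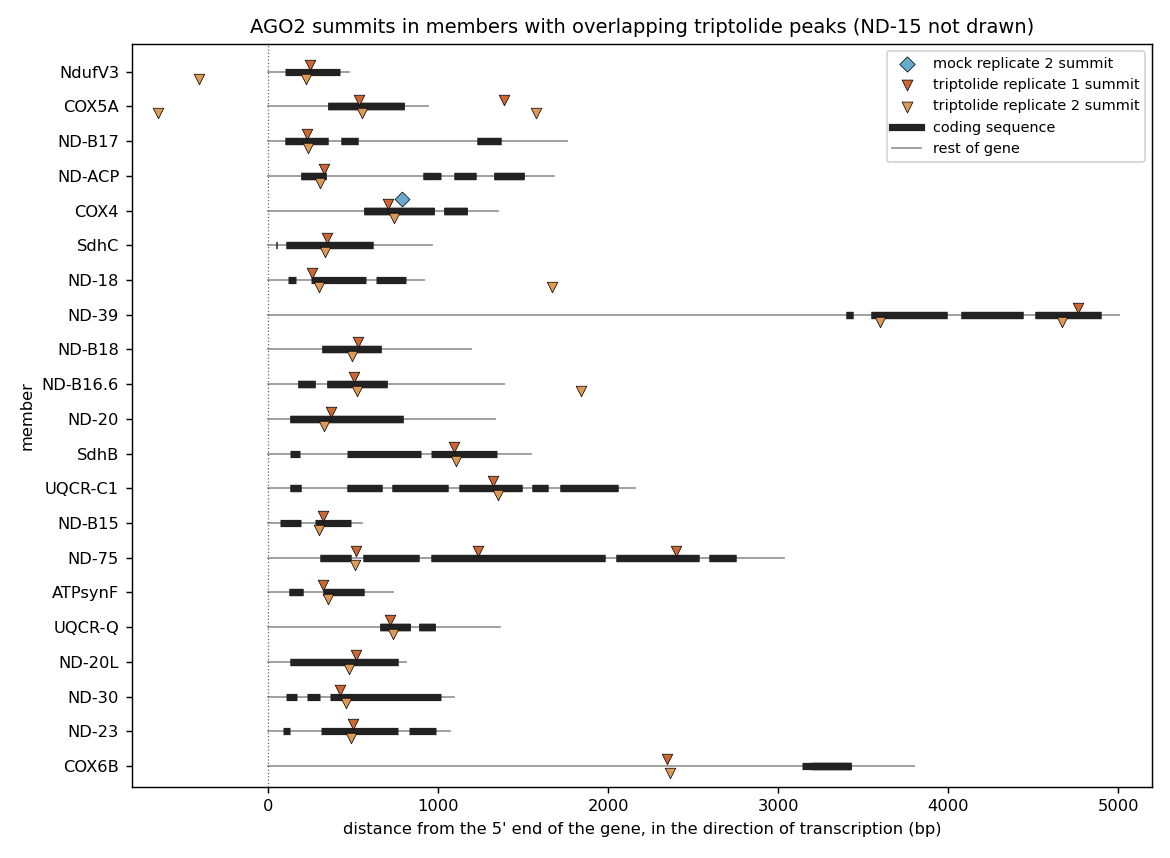
AGO2 summits along 21 of the 22 members with overlapping Triptolide peaks (ND-15, 41305 bp, is not drawn), ordered by mean score percentile; the x axis is distance from the 5′ end of the gene (bp), thick bars are coding sequence, triangles are summits of Triptolide replicates 1 and 2 and the diamond is mock replicate 2. Paired triangles lie over coding bars in all but ATPsynF, ND-75 and COX6B, apart from a further pair of COX5A downstream of the gene (1386 and 1578 bp). The single mock summit is next to the Triptolide summits of COX4.

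Replicates were compared by the members they shared. Of 34 members with a Triptolide peak in either list, 22 had overlapping peaks in both (64.7%, Wilson interval 47.9 to 78.5%), 4 had a peak in replicate 1 alone and 8 in replicate 2 alone. The same share was 49.1% over all protein-coding genes with a Triptolide peak. Over the 22 members the summits of the closest overlapping pair were 27 bp apart in the median, from 6 bp in ND-75 to 92 bp in ND-39. Of these pairs, 20 were within 50 bp. COX5A had a further overlapping pair with summits wider apart, at 1386 and 1578 bp from the 5′ end of the gene. In mock, 3 of 4 members with a peak had overlapping peaks in both lists (75%, interval 30.1 to 95.4%, against 52.6% over all protein-coding genes). With the top-scoring 50% of each list these shares were 59.3% for Triptolide and 33.3% for mock, so the order of the treatments depended on this setting. Between treatments 0 members had overlapping peaks when mock replicate 1 was paired with either Triptolide list, and 1, COX4, when mock replicate 2 was. These counts rest on the 3 and 4 members with a mock peak. No share over all protein-coding genes is set beside them, so they are not read as a trait of the members.

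Members found in 1 Triptolide list were not confined to weak peaks. Their percentiles ran from 5.49 in ATPsynO, a subunit of the peripheral stalk, to 98.7 in ATPsynE, with a median of 72.4. ATPsynE (percentile 98.7, fold 5.33, summit in coding sequence) had a peak in replicate 2 and none in replicate 1. ND-B14 and ND-B14.7 had percentiles of 92.5 and 91.0 in replicate 1 and no peak in replicate 2. ND-51, a core subunit of complex I that binds NADH, had a peak at percentile 36.2 in replicate 2 only.

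Peaks in members were richer in G and C after Triptolide. The median GC content of member peaks was 50.8% in mock replicate 1 and 51.4% in mock replicate 2, where all peaks on placed chromosomes had medians of 51.2 and 48.9%. It was 59.5% in Triptolide replicate 1 and 60.0% in replicate 2, where those peaks had medians of 58.9 and 59.8%. The difference in the mean of these medians was 8.67 percentage points (51.1 ± 0.401 against 59.7 ± 0.366%, SD, n = 2 lists each, p = 0.333 in the same exact permutation test, again the lowest possible). Of the Triptolide peaks, 28 of 30 and 34 of 37 had a GC content of at least 55%, against 1 of 4 and 1 of 7 in mock. The shift was that of the lists as a whole, and the part of base composition in the calling of peaks was not tested, since the input libraries were not analysed by themselves.

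Within a member the Triptolide summits fell near its GC-richest sequence. Every window of 100 bp on each side of a base, over the gene and its 500 bp flanks, was ranked by GC content, and the window centered on the summit had a median rank of 94.6% in Triptolide replicate 1 and 94.3% in replicate 2. It ranked at 90% or higher for 21 of 30 and 24 of 37 peaks. The richest window of a member had a median GC content of 65.2% (59.7 to 71.1%) in the 22 members with overlapping Triptolide peaks. It was 64.2% (59.2 to 76.6%) in the 12 with a peak in 1 list and 60.7% (49.8 to 71.1%) in the 56 with none. Mock summits in members also ranked high, with medians of 83.2 and 87.7%, and 1 of 4 and 3 of 7 ranked at 90% or higher, those of ND-MLRQ in both lists and of COX4 and COX7AL2 in replicate 2. No difference in rank between treatments was tested. Summit ranks were computed for members only, so whether they differ from those of all protein-coding genes is unknown.

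Across bins of this richest window, members with overlapping Triptolide peaks were 0 of 12 below 55%, 2 of 17 (11.8%, UQCR-Q and ND-23) from 55 to 60%, 8 of 38 (21.1%) from 60 to 65% and 12 of 23 (52.2%) at 65% or higher. Over all protein-coding genes these shares were 0.0635, 1.86, 19.5 and 48.5%. Over all genes between the quartiles of the members' length they were 0, 1.63, 20.0 and 38.6%. The shares of each set were thus higher in the richer bins, and no difference between the sets was tested. Some members with a rich window had no peak. ATPsyndelta, a subunit of the central stalk of ATP synthase, had a window of 71.1%, UQCR-C2 one of 69.2% and ATPsynB one of 68.7%, and none had a peak in any list. ATPsynbeta, the catalytic subunit of ATP synthase, and ND-49 lie on chromosome 4, had richest windows of 54.2 and 53.2%, and had no peak.

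**Figure D4:**
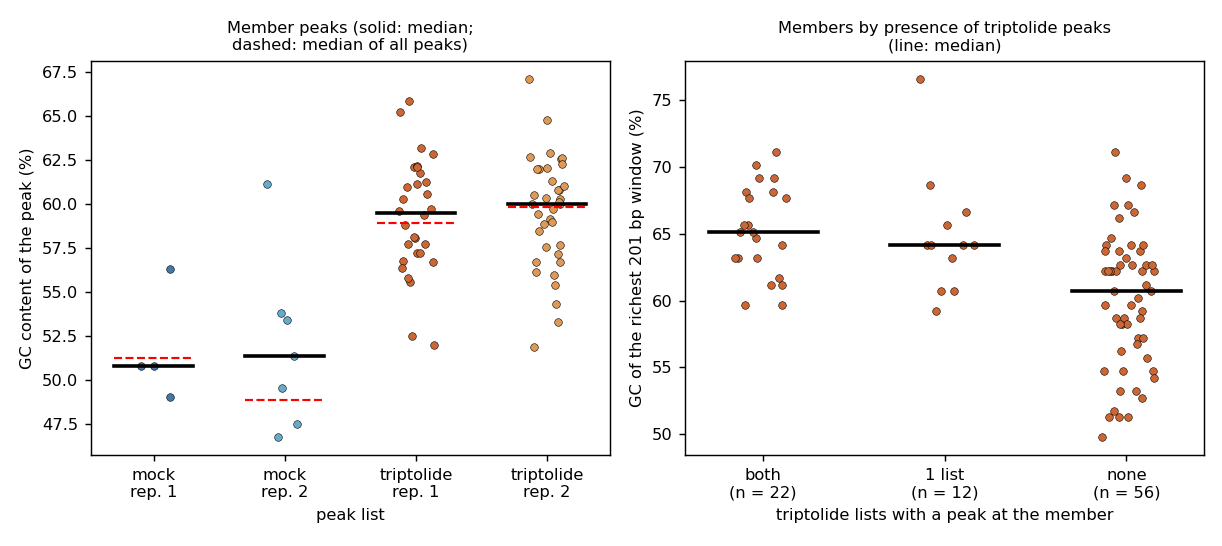
Left, GC content (y axis, %) of each member peak by list, with solid lines for medians and dashed lines for the median of all peaks of the list on placed chromosomes; right, GC content (%) of the richest window (100 bp on each side of a base) of each member, grouped by whether both, 1 or no Triptolide list had a peak. Member peaks center near 60% in both Triptolide lists and near 51% in mock, and the medians on the right fall from 65.2 to 60.7%.

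Other gene lists with housekeeping or mitochondrial roles were scored in the same way. Of 92 cytosolic ribosomal protein genes, 1 and 3 had a peak in the mock lists, 31 (33.7%) and 33 (35.9%) in the Triptolide lists and 24 (26.1%) had overlapping peaks in both. Of 73 mitochondrial ribosomal protein genes, 0 had a mock peak, 26 (35.6%) and 16 (21.9%) had a Triptolide peak and 14 (19.2%) had overlapping ones. Among 15 respiratory genes whose symbols the rule does not take in, the counts were 1 and 1 in mock and 4 and 6 after Triptolide. The gene sicily, which encodes a complex I assembly factor, was the one with overlapping Triptolide peaks, at percentiles of 16.5 and 72.8. Cyt-c-d, a cytochrome c gene, had a peak in both mock lists, at percentiles of 51.5 and 74.6, and none after Triptolide. Of 15 genes of the tricarboxylic acid cycle and pyruvate dehydrogenase, 0 and 1 had a mock peak, 5 and 6 a Triptolide peak and 3 overlapping ones, namely Pdhb (percentiles of 98.2 and 98.1), Scsalpha1 and Idh3a. No difference between these lists was tested.

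The letters GAGAG, the core of the motif bound by GAGA factor, were searched on both strands (as GAGAG or CTCTC) within 100 bp on each side of each summit. They were present at 3 of 4 and 3 of 7 member summits in mock and at 8 of 30 (26.7%) and 7 of 37 (18.9%) after Triptolide. Over the 1032, 1892, 5480 and 5778 peaks on placed chromosomes the shares were 84.7 and 77.9% in mock and 26.0 and 22.9% after Triptolide. Of windows of that length around 23694 annotated TSSs, 24.3% held the letters. The mock segments of ND-15 and ND-MLRQ printed above are among those with a match.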

How the data were processed

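Mock and Triptolide AGO2 ChIP-seq peak lists of Kc cells were used, 2 replicates each. The authors trimmed reads with cutadapt (version 1.10), aligned them to dm6 with Bowtie2, discarded low mapping qualities (which removes reads from near-identical copies), removed duplicates with Picard (version 2.11.0) and called peaks per replicate against input with MACS2 (version 2.1.1.20160309). Versions are those of the submitters' processing notes, and the study's methods give others for cutadapt and Picard. The deposited score is derived from the −log10 q-value, and the fold, deposited as a ratio, sets the signal at the summit against local background. The authors also deposited the −log10 p-value, which was not used. Read depth is unknown.

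Gene models were those of Ensembl for BDGP6.54 and sequence from the RefSeq copy of the same Release 6 assembly. Overlap required 1 bp. Percentiles were ranks by −log10 q-value within a list. Summits were classed by the member's annotation in the order coding sequence, UTR, intron and flank. Values per list were compared with two-sided exact permutation tests, whose smallest p is 0.333. Python 3.11.15, numpy 2.4.6, pandas 2.3.3, scipy 1.17.1 and matplotlib 3.10.9 were used, and scripts were tested on simulated peaks. No column of another series was used. The L paralogs are symbols ending in L or in L and a number, and ND-MNLL was kept as a subunit.

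Members, gene lists and tests were chosen with earlier results of these data known. Named genes are all members with a mock peak, the 15 with the highest mean Triptolide percentile among those with overlapping peaks and the best of each complex among these. Other names, the GC bins, the windows of 100 bp on each side of a base and the GAGAG search were chosen after values were seen. Of the listed respiratory and tricarboxylic acid cycle symbols, 15 of 18 and 15 of 16 were found. Alternatives were the flank, the top-scoring peaks, summits in place of peaks, subunits only, GC around the summit, the replicate block and leaving out each list.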

Additional observations from a re-analysis of the deposited data

How the results depend on the processing

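Of 82 values under alternative settings, 78 were classed as the same, 3 as moved and 1 as changed in sign. All differences between treatments classed as the same kept their direction. Direction alone did not set the class, since -1.72 points, where -5.26 was reported, counted as moved. For counts and agreements, where no test applied, the class was loose. It took in a mock replicate agreement of 33.3%, where 75% was reported, and counts of 15 and 28 members, where 20 was reported. No permutation test of 2 lists against 2 could pass a threshold under any setting. The share of peak-bearing members whose summit lay in the gene differed by -5.26 percentage points between Triptolide and mock (94.7 against 100%). It differed by 0 points with no flank, by -1.72 with summits in place of peaks and by 7.33, the other way, with flanks of 1500 bp. Without one list at a time it ran from -6.67 to -3.85. Members with a peak in both Triptolide lists and in no mock list numbered 20, and 9 with the 1055 top-scoring peaks of each list, 15 with the top-scoring 50% of each list and 24 with flanks of 1500 bp. Leaving out 1 list at a time gave 20 to 28, where the higher values count members in the single Triptolide list that was left. No shares over all protein-coding genes are set beside the values under alternative settings, so whether members stayed near that background is unknown. The difference in the share of members with a peak was 27.2 percentage points, between 25 and 29.4 without one list at a time, 36.2 with subunit genes only and 11.7 with equal numbers of peaks. The difference in coding summits was 41.3 percentage points with flanks of 1500 bp and 90 with equal numbers of peaks, where 66.3 was reported, and that in summits near the start was 3.85 and 14.4, where 6.04 was reported. Replicate agreement with the top-scoring 50% of each list was 59.3% for Triptolide (64.7% reported) and 33.3% for mock (75% reported). It has no value when a list of the same treatment is left out. With the replicate number as a replicate block, the difference in share remained 27.2 percentage points (exact sign-flip permutation test, p = 0.5, the smallest that 2 pairs allow), and the labels do not say that a number marks a shared batch. The GC difference was 8.58 percentage points within 100 bp on each side of the summit, an alternative chosen after seeing the data. With lists alone and no read counts, a member without a peak may have signal just under the threshold of the caller.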
